A study of Mus musculus with 8 samples.

Results

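The transcripts of the urea cycle enzymes were followed in liver from 8 female mice of the C57BL/6 strain, of which 4 had received the antisense oligonucleotide SPC3833 and 4 saline. The enzymes were chosen by pathway, with earlier results of these data known. They were taken as the probe sets of Cps1, Otc, Ass1, Asl and Arg1. All 5 were present among the 22361 probe sets of the table. An antisense oligonucleotide is a short synthetic nucleic acid that binds a complementary RNA, and the labels used here do not name the target of SPC3833. Per the labels, SPC3833 was given intravenously at 5 mg/kg on 3 consecutive days, the mice carried no stated genetic change, and their age was not stated. The labels place the collection of liver either on day 3, counted from the first dose as day 0, or 4 days after the first dose. Per the labels, the comparison group was given saline and not another oligonucleotide. Whole liver was measured on 1 Affymetrix array per mouse, so that fewer cells of a type and less RNA per cell cannot be told apart.

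The urea cycle turns ammonia, which is toxic to the brain, into urea for excretion by the kidney, and the full cycle runs in hepatocytes, mostly those around the portal vein. Carbamoyl phosphate synthetase, encoded by Cps1, and ornithine transcarbamylase, encoded by Otc, work in the mitochondrion and make citrulline. Argininosuccinate synthetase (Ass1), argininosuccinate lyase (Asl) and arginase (Arg1) work in the cytosol and carry citrulline through argininosuccinate and arginine to urea and ornithine. Feeding, glucagon and glucocorticoids are known to set the transcript levels of these enzymes in rodents.

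Promoter sequences are shown for Otc and Ass1 because these are the enzymes that the RefSeq promoter table used here holds. The 250 bases before the annotated start are given 5′ to 3′ on the plus strand of GRCm38.p6, at chrX:10252055-10252304 for Otc and chr2:31470020-31470269 for Ass1. Capitals mark motif matches. Cps1, Asl and Arg1 were not matched in the table.
Otc: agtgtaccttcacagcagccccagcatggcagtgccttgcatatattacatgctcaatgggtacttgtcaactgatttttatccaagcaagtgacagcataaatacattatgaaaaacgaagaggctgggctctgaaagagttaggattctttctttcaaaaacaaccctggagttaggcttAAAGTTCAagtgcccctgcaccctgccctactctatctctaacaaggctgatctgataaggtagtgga
Ass1: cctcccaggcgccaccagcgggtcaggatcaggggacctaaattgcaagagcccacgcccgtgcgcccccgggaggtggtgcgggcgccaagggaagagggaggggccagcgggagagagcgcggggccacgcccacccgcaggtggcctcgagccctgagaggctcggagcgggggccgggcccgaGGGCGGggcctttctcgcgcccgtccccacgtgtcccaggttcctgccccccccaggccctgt
The searched letters, on both strands, were TATAAA (the TATA box), AAAGTNCA (an HNF4 half-site), TTGCNNAA (a C/EBP site), TGACGTCA (the cyclic AMP response element) and GGGCGG (the GC box bound by SP1). The half-site letters were chosen after the Otc window had been seen, and the GC box after the Ass1 window had been seen. The Otc window held 1 match to AAAGTNCA, 68 to 61 bases before the start, and such a match stood in 3.53% of 32817 promoters. The Ass1 window held 1 match to GGGCGG, 63 to 58 bases before the start, found in 32.7% of promoters. Matches to TATAAA, TTGCNNAA and TGACGTCA, which 12.4%, 9.57% and 1.55% of promoters held, were in neither window, and no matches overlapped. The GC content was 43.6% for Otc and 75.6% for Ass1, against a median of 52.4%. Binding was not measured on these arrays, and the windows describe the genes only.

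All 5 probe sets were bright ones. In the saline livers, 19 of the 22361 probe sets read brighter than Cps1, 158 brighter than Arg1, 317 brighter than Asl, 448 brighter than Otc and 634 brighter than Ass1. These positions describe probe signal and do not rank the enzymes by transcript number. One array bears on bright probe sets: the highest value on SPC3833 replicate 4 was 13.20, whereas the highest value of any array was 14.18. Fold changes and spreads are therefore given with and without that array. Names of other genes, among them the markers of hepatocytes and of other liver cells, could not be joined to the probe sets, so the tissue label was not checked against such markers.

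None of the 5 enzymes passed the threshold, a Benjamini-Hochberg adjusted p under 0.05 in a limma fit over all probe sets. In that fit 4.07% of probe sets passed, 1.74% lower and 2.33% higher with SPC3833. An unadjusted p under 0.05 was reached by 3 of the 5, all with a lower mean after SPC3833, namely Cps1, Otc and Asl, while 17.2% of all probe sets reached it and 6.30% did so with a lower mean. The log2 fold changes of the 5 ran from -0.49 to 0.21 with a median of -0.36, against a median of 0.03 over all probe sets. The median over all probe sets and the shares of all probe sets in this paragraph were not matched for brightness. Cps1, Otc, Ass1 and Asl had lower means in the SPC3833 group and Arg1 had a higher mean, while 41.1% of all probe sets had a negative log2 fold change. A two-sided exact permutation test of each enzyme alone, unadjusted, gave p = 0.0286 for Cps1, 0.0857 for Otc, 0.0857 for Asl, 0.229 for Arg1 and 0.286 for Ass1. The value for Cps1 is the lowest possible with 4 animals a group and follows from the separation of its groups.

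Cps1 (ENSMUSG00000025991_at), which forms carbamoyl phosphate from ammonia at the entry of the cycle, read 13.18, 13.18, 13.32 and 13.22 on saline replicates 1 to 4 and 12.86, 13.12, 13.12 and 12.07 on SPC3833 replicates 1 to 4, in log2 expression. Every SPC3833 value lay below every saline value, a separation in this direction seen for 4.34% of all probe sets, but on replicates 2 and 3 the gap to the lowest saline array was small. The means were 13.22 ± 0.07 and 12.79 ± 0.50 (SD, n = 4 each). The SPC3833 mean was thus 1.35-fold lower, and the log2 fold change was -0.43 with an SE of 0.196 and a 95% interval of -0.86 to -0.00166 (limma adjusted p = 0.288). SPC3833 replicate 4 set much of the size: without it the log2 fold change was -0.19 (95% interval -0.40 to 0.03, limma adjusted p = 0.380), and the groups were still apart, as they were for 5.04% of all probe sets in this direction.

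Otc (ENSMUSG00000031173_at), which joins carbamoyl phosphate to ornithine, read 10.20, 10.27, 10.33 and 10.41 with saline and 9.75, 10.32, 9.89 and 9.91 with SPC3833. SPC3833 replicates 1, 3 and 4 lay below all saline arrays, and replicate 2 lay inside the saline range. Means were 10.30 ± 0.09 and 9.97 ± 0.25 (SD, n = 4 each), 1.26-fold lower with SPC3833. On the log2 scale this was -0.33 with an SE of 0.120 (95% interval -0.60 to -0.07, limma adjusted p = 0.162). Otc depended more on SPC3833 replicates 1 and 2 than on replicate 4. Without SPC3833 replicate 1 Otc was at -0.26 (95% interval -0.53 to 0.00842, limma adjusted p = 0.327). Without SPC3833 replicate 2 it passed the threshold, at -0.45 with an SE of 0.0910 (limma adjusted p = 0.0238), as did 2.46% of probe sets in this direction, and without replicate 4 the value was -0.31 (limma adjusted p = 0.268).

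Ass1 (ENSMUSG00000076441_at), which couples citrulline to aspartate, varied more than the other enzymes already among the saline mice. Its saline values were 9.63, 9.83, 9.97 and 10.04, and its SPC3833 values were 9.78, 9.30, 10.08 and 8.85. The SPC3833 group thus held both the highest and the 2 lowest values of the 8 arrays, and the groups overlapped. Means were 9.87 ± 0.18 and 9.50 ± 0.54 (SD, n = 4 each), and the log2 difference of -0.36 had an SE of 0.218 (95% interval -0.84 to 0.11, limma adjusted p = 0.457). It was -0.15 without SPC3833 replicate 4 (limma adjusted p = 0.743) and -0.56 without SPC3833 replicate 3 (limma adjusted p = 0.156).

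Asl (ENSMUSG00000025533_at), which splits argininosuccinate into arginine and fumarate, had the lowest log2 fold change of the 5 over all arrays, whereas without SPC3833 replicate 4 that of Otc was lower. It read 10.64, 10.78, 10.78 and 10.65 with saline and 10.13, 10.50, 10.66 and 9.61 with SPC3833. SPC3833 replicate 3 lay within the saline range and the other SPC3833 arrays lay below it. The mean went from 10.71 ± 0.08 in saline to 10.22 ± 0.46 in SPC3833 (SD, n = 4 each), 1.40-fold lower. This log2 fold change, -0.49 with an SE of 0.185, had a 95% interval of -0.89 to -0.08 (limma adjusted p = 0.185). Without SPC3833 replicate 4 it was -0.29 (95% interval -0.56 to -0.00933, limma adjusted p = 0.285).

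Arg1 (ENSMUSG00000019987_at), which releases urea from arginine, was the enzyme with a higher mean after SPC3833. Its values were 11.34, 11.38, 11.36 and 11.51 with saline and 11.53, 11.85, 11.82 and 11.24 with SPC3833. SPC3833 replicates 1 to 3 were above all saline arrays and replicate 4 was below all of them. The means were 11.40 ± 0.08 and 11.61 ± 0.29 (SD, n = 4 each), 1.16-fold higher with SPC3833, and the log2 difference was 0.21 with an SE of 0.130 (95% interval -0.08 to 0.49, limma adjusted p = 0.476). Without replicate 4 it was 0.33 (SE 0.103, 95% interval 0.11 to 0.56), still short of the threshold (limma adjusted p = 0.128). Without that array the Arg1 groups did not overlap, as for 10.8% of all probe sets in this direction. In the fit without it, 0 of the 5 enzymes and 2.58% of probe sets passed the threshold, and an unadjusted p under 0.05 was reached by Otc, Asl and Arg1 and by 16.4% of probe sets.

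**Figure D1:**
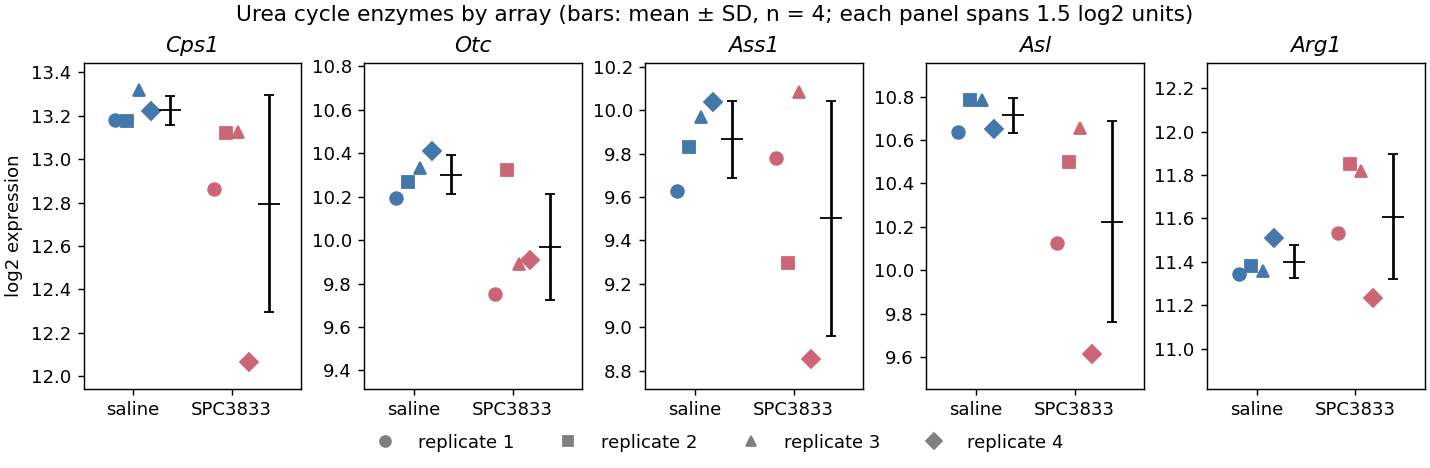
Log2 expression of each enzyme on each array, with saline in blue and SPC3833 in red, marker shapes for replicate numbers, and bars for the mean ± SD (n = 4). Every panel spans 1.5 log2 units; SPC3833 replicate 4 (diamond) is the lowest SPC3833 array for Cps1, Ass1, Asl and Arg1 but not for Otc.

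The spread between mice was wider after SPC3833 for all 5 enzymes. The SD in the SPC3833 group over that in saline was 7.61 for Cps1, 5.66 for Asl, 3.77 for Arg1, 3.02 for Ass1 and 2.72 for Otc. The median of this ratio was 1.18 over all probe sets and 1.94 over the 1205 probe sets above 9 in saline, among which the 5 enzymes lie, and the SPC3833 SD was the larger one for 59.5% and 81.8% of them. SPC3833 replicate 4 set much of the ratio of Cps1 and part of those of Asl, Arg1 and Ass1. Without it the ratios were 2.30 for Cps1, 3.32 for Asl, 2.30 for Arg1, 2.21 for Ass1 and 3.29 for Otc, so Cps1 no longer had the highest. The medians were then 1.03 over all probe sets and 1.46 above 9, with a larger SPC3833 SD for 51.6% and 70.5%. These ratios rest on 4 or fewer mice a group and were not tested.

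SPC3833 replicate 4 held the lowest SPC3833 value of 4 of the 5 enzymes, which it also held for 57.2% of probe sets above 9 in saline and for 38.4% of all probe sets. Its shortfall grew with brightness above about 8 in saline, from a bin median of -0.05 between 8 and 9 to -0.71 between 13 and 14, so each enzyme was set beside all probe sets of the same 1-unit bin of saline signal. Against the mean of the other SPC3833 arrays, Ass1 read -0.87 on replicate 4, whereas the median of its bin was -0.11 and 3 of 632 probe sets in the bin read lower. Asl read -0.81 where the bin median was -0.21, with 4 of 334 lower. For both, the reading was below that of nearly all other probe sets of like brightness on the same array. Replicate 4 was not the only array apart. In the same measure, replicates 1 to 3 read 0.37, -0.27 and 0.77 for Ass1 and -0.13, 0.37 and 0.58 for Asl. On replicate 4, Cps1 read -0.97 against a bin median of -0.71, with 2 of 27 lower. Arg1 read -0.50 against -0.29, with 27 of 155 lower. Otc read -0.08 against -0.21, with 241 of 334 lower, so Otc alone of the 5 read above its bin median. The parts of the array and of the animal in these readings cannot be told apart, since each mouse had 1 array.

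**Figure D2:**
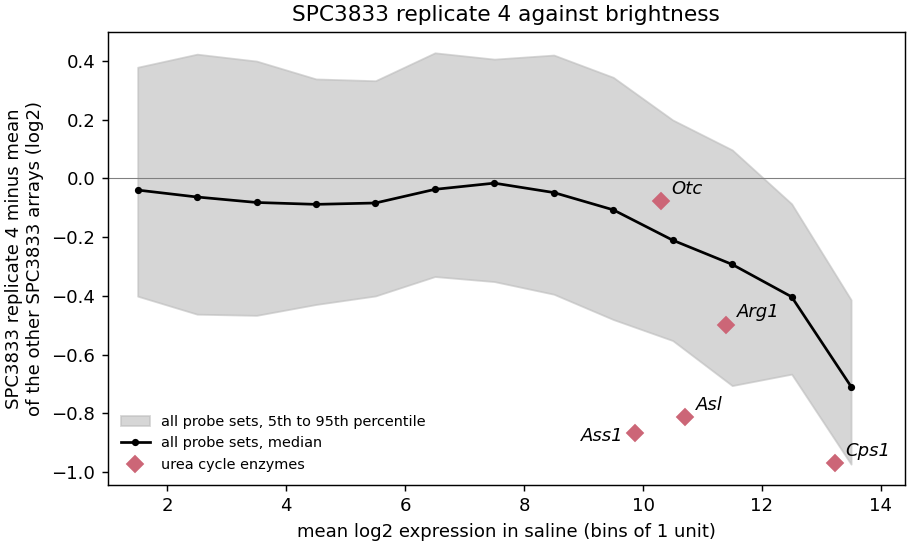
The reading of SPC3833 replicate 4 minus the mean of the other SPC3833 arrays (log2), against mean log2 expression in saline. The black line joins medians of all probe sets in 1-unit bins of at least 20 probe sets. The grey band runs from the 5th to the 95th percentile, joined between bin centres, and diamonds are the enzymes. Ass1 at -0.87, Asl at -0.81 and Cps1 at -0.97 lie below the band as drawn. The 5th percentile of the Cps1 bin itself was -0.973. Arg1 at -0.50 lies inside the band below the line, and Otc at -0.08 lies above the line.

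Set against its own saline mean, Arg1 had the highest change of the 5 enzymes on each of the 4 SPC3833 arrays. Its change was 0.13, 0.45, 0.42 and -0.16 on replicates 1 to 4, and the mean change of the other 4 enzymes was -0.40, -0.22, -0.09 and -0.92. The difference between these was 0.53, 0.67, 0.51 and 0.75 on the SPC3833 arrays and ran from -0.11 to 0.06 on the saline arrays. A difference taken within an array does not move with an offset common to that array. The shortfall of SPC3833 replicate 4 was not such an offset, since it varied with brightness. Its part in the 0.75 was not tested. The difference describes unequal change of Arg1 and the others. Since Arg1 was singled out after its values had been seen, the difference is given as a description with no test. The lowest change was that of Asl on replicate 1, Ass1 on replicate 2, Otc on replicate 3 and Cps1 on replicate 4. On replicate 4 this order turned with the scaling: after the cyclic loess normalization described next, Asl was at -0.96, Ass1 at -0.94 and Cps1 at -0.78 against their saline means.

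**Figure D3:**
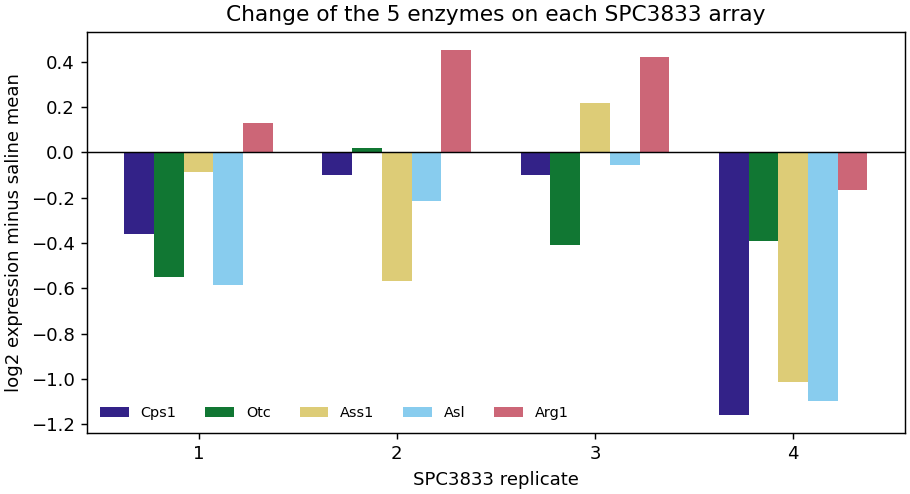
Log2 expression of each enzyme minus its own saline mean, on each of the 4 SPC3833 arrays. Bars are single arrays; Arg1 is the highest bar on every array, at 0.13, 0.45, 0.42 and -0.16, and Cps1, Ass1 and Asl reach below -1 on replicate 4.

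A cyclic loess normalization, which lets the correction between arrays vary with brightness, was applied to the deposited values. It reduced the shortfall of SPC3833 replicate 4 between 13 and 14 in saline from a median of -0.71 to -0.23. After it, Cps1 and Otc were lower on all SPC3833 arrays than on any saline array, and Arg1 was higher on all of them, by a margin in the third decimal (saline up to 11.4571, SPC3833 from 11.4585). Such separations were seen after this normalization for 6.94% of all probe sets in the lower direction and 6.05% in the higher one. None of the 5 passed the threshold, which 4.84% of probe sets did, while 4 of the 5, all but Ass1, and 18.3% of probe sets had an unadjusted p under 0.05. The log2 fold changes were -0.50 for Asl, -0.39 for Cps1, -0.39 for Ass1, -0.35 for Otc and 0.22 for Arg1, with adjusted p from 0.0583 (Otc) to 0.393 (Ass1). Against the mean of the other SPC3833 arrays, replicate 4 then read -0.73 for Ass1, -0.61 for Asl, -0.53 for Cps1, -0.20 for Arg1 and 0.10 for Otc.

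**Figure D4:**
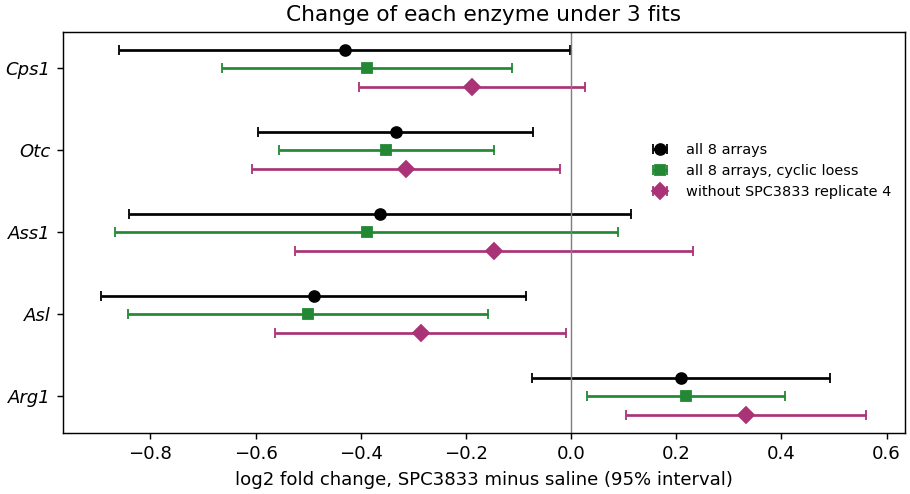
Log2 fold change of each enzyme, SPC3833 minus saline, with its 95% interval from limma, for all 8 arrays as deposited, for all 8 after cyclic loess, and without SPC3833 replicate 4. Leaving out replicate 4 moves Cps1 from -0.43 to -0.19, Ass1 from -0.36 to -0.15 and Asl from -0.49 to -0.29. It moves Arg1 from 0.21 to 0.33 and Otc from -0.33 to -0.31.

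The probe sets whose pattern over the 8 arrays was most like the mean of the 5 enzymes were ENSMUSG00000003477 and ENSMUSG00000020051, for which the gene table used here gives no name. With values centred on the saline mean, the root mean square difference from the enzymes was 0.0359 and 0.0660 on the log2 scale, against a median of 0.332 over all other probe sets. Both were picked for the smallest difference, so values below that median were given by the choice. ENSMUSG00000003477 read 12.16, 12.24, 12.36 and 12.42 with saline and 11.95, 12.21, 12.31 and 11.50 with SPC3833. It too was lowest on SPC3833 replicate 4, by -0.66 against the mean of the other SPC3833 arrays, and it did not pass the threshold (log2 fold change -0.30, limma adjusted p = 0.359). ENSMUSG00000020051 had a log2 fold change of -0.25 (limma adjusted p = 0.455) and read -0.63 on replicate 4 in the same measure. Both lie between 12 and 13 in saline, where the median of the 54 probe sets on replicate 4 was -0.40, with 3 of them lower than ENSMUSG00000003477 and 7 lower than ENSMUSG00000020051. Over the 7 arrays without replicate 4, ENSMUSG00000003477 ranked 3 and ENSMUSG00000020051 ranked 116 in likeness to the enzymes.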

How the data were processed

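Values on a log2 scale for 22361 probe sets, each with 1 Ensembl mouse gene ID, were deposited by the authors for the 8 arrays. The log2 scale was read from the values, which run from 0.88 to 14.18. The affy package is named without a version in the submitters' processing notes. Background correction, normalization, probe set definition and genome build are not given in the sources used here. The number of arrays limits the precision.

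SPC3833 was compared with saline in limma 3.58.1 (R 4.3.3; lmFit and eBayes, two-sided, no covariate, no filter), with Benjamini-Hochberg adjustment over all probe sets. Intervals are at 95%. The fit was tested on simulated data with independent noise for each probe set and array. Such data hold no shortfall that varies with brightness, so that test does not bear on SPC3833 replicate 4. The 5 members were named whatever their values, through the IDs given with the pathway. The gene table holds no Ensembl ID, so 0 of 22361 IDs matched, and 3 other lists of related genes and 7 lists of cell type markers were not analysed here. The members and lists were chosen with earlier results of these data known. Like patterns were ranked by root mean square difference. Figures were drawn with matplotlib 3.10.9. Replicate numbers stand only in titles and were not used as a block. Alternatives were other scalings, filters, variance models, thresholds, the block and leaving out each array.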

Additional observations from a re-analysis of the deposited data

How the results depend on the processing

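Each enzyme kept its direction under all 19 alternatives, and Otc alone passed the threshold in any of them. The filters, the block, an intensity trend and robust variances leave the log2 fold change unchanged, so its direction could not turn there. Leaving out each array in turn gave log2 fold changes of -0.54 to -0.19 for Cps1, -0.45 to -0.26 for Otc, -0.56 to -0.15 for Ass1, -0.63 to -0.29 for Asl and 0.13 to 0.33 for Arg1. It gave 0 to 1 enzymes past the threshold, the 1 being Otc without SPC3833 replicate 2. Over all alternatives the limma adjusted p ran from 0.115 to 0.454 for Cps1, 0.0238 to 0.327 for Otc, 0.156 to 0.743 for Ass1, 0.0762 to 0.338 for Asl and 0.127 to 0.720 for Arg1. Cyclic loess with SPC3833 replicate 4 left out was chosen after seeing the data and gave -0.25 for Cps1, -0.37 for Otc, -0.20 for Ass1, -0.34 for Asl and 0.27 for Arg1, with 0 past the threshold.

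Over all probe sets 911 passed. Leaving out 1 array gave 467 to 967, probe sets above the median gave 1552, adjusted p under 0.01 gave 296 and under 0.1 gave 1582. Fewer arrays or probe sets entered the first of these, and the cause was not tested. The share higher was 57.2% as deposited, 42.6% after quantile normalization, 40.7% after cyclic loess, 36.2% centred on the median and 45.3% centred on the 75th percentile. The numbers were not taken to pair the mice, since the labels do not say that they do. Deviations of same-numbered arrays correlated, across probe sets, at 0.16, 0.04, -0.03 and 0.14. For saline replicates 1 and 4 the same-numbered SPC3833 array had the highest correlation, and for replicates 2 and 3 another one had. With the replicate block 856 probe sets and 0 enzymes passed, with log2 fold changes as before. Whether signal near the top of the scan limits Cps1 was not tested.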
